A study of Mus musculus with 7 samples.

Results

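The genes described are 10 immediate early genes of mouse adipocytes. They comprise the EGR factors Egr1, Egr2 and Egr3, the NR4A factors Nr4a1, Nr4a2 and Nr4a3, and Arc, Ier2, Ier3 and Myc. They were chosen by symbol, each matched 1 of the 57010 gene identifiers in the deposited count table, and all 10 of 10 passed the filter on low counts. RNA-Seq was performed on mature white adipocytes released by collagenase from perigonadal fat pads of male mice aged 20 weeks on a normal chow diet (Teklad LM-485). The controls were 3 FFA2 fl/fl mice, which carry floxed FFA2 alleles and no Cre. The 4 Adipoq-F2-KO mice carry the same floxed alleles together with an Adiponectin-Cre transgene, in which the adiponectin promoter drives Cre recombinase in adipocytes, so that the receptor is deleted there and kept in the other cells of the depot. FFA2 is a receptor for short-chain fatty acids such as acetate. Per the labels the mice were littermates co-housed from birth, each library is labelled as a separate mouse, and no treatment was given.

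Immediate early genes are transcribed within minutes of a stimulus from factors already present in the cell, without new protein synthesis. Signals through the ERK cascade reach the Egr genes through serum response factor and its partners at CArG boxes, and signals through cAMP reach the Nr4a genes through CREB at cAMP response elements. EGR proteins are zinc finger factors, and NR4A proteins are orphan nuclear receptors that act without needing a ligand. In fat, both families respond to feeding, catecholamines and inflammatory signals, and the digestion of a tissue can also induce them. The comparison asks whether adipocytes without FFA2 held different amounts of these transcripts on chow.

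The DNA upstream of the NR4A genes is shown first, since Nr4a3 had the largest log2 fold change of the 10 genes. RefSeq promoter windows (build GRCm38.p6) were matched for 5 of the 10 genes, namely Egr2, Ier3, Nr4a1, Nr4a2 and Nr4a3. The 250 bases upstream of each start site were searched on both strands for the core of the cAMP response element, TGACG, and for an EGR site, GCGNGGGCG, neither of which overlapped the other in these windows. Capitals mark the matches in either orientation. The windows are chr15:101266596-101266845 on the plus strand for Nr4a1 and chr2:57124004-57124253 on the minus strand for Nr4a2. For Nr4a3 the stretch chr4:48045055-48045152 on the plus strand is shown, which ends before the first annotated exon.
Nr4a1: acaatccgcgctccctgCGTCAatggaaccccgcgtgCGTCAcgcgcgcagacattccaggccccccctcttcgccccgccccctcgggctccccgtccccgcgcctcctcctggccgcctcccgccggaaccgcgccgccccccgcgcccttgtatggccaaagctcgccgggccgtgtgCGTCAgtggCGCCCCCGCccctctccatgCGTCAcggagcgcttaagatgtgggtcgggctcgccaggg
Nr4a2: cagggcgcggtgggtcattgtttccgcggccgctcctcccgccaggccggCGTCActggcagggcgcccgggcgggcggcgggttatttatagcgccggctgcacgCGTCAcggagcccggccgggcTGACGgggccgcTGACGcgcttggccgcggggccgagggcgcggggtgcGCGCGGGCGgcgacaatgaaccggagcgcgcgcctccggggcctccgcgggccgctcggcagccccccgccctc
Nr4a3: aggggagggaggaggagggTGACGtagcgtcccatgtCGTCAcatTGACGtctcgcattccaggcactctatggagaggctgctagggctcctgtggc

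Each of the 3 NR4A windows held 4 copies of TGACG. Of all 32851 mouse promoter windows of this length, 45 (0.137%) held at least 4 copies and 17.8% held at least 1. In Nr4a1 the copies began at -233, -213, -69 and -40 from the start site, in Nr4a2 at -200, -144, -123 and -111, and in Nr4a3 at -231, -213, -205 and -147, the last of these inside an annotated exon and so not shown. The EGR site occurred once upstream of Nr4a1, at -60, and once upstream of Nr4a2, at -74, against 4.70% of all windows. At Egr2, the overlapping windows of 3 of 5 start sites held the same 2 copies of TGACG and no EGR site. The TGACG core was thus not particular to the NR4A genes. The window of Ier3 held neither motif. Egr2 is shown for its CArG box, the element bound by serum response factor, which 1.47% of all windows hold. Of 5 Egr2 start sites, 4 had a CArG box in the window. The box that 3 of these windows share is capitalized in the stretch chr10:67537787-67537816 on the plus strand, 72 bases before one of the start sites, and the window of the other start site holds a different box outside this stretch.
Egr2: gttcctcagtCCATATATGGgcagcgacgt
The full palindromic element, TGACGTCA, and the NR4A monomer site, AAAGGTCA, were found in none of the windows of these 5 genes, against 1.55% and 1.34% of all windows. These matches are letters in a window and were not tested for binding.

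Total counts per library lay between 30478997 and 39992605. Of low counts, 85.5% to 88.8% were even, a pattern that arises where each read of a pair adds 1 count, so a fragment is taken as 2 counts. The least covered value was that of Egr3 in FFA2 fl/fl library 3, with 537 counts or 268.5 fragments, whose exact 95% Poisson interval of 237 to 303 fragments spans 14.2 to 18.1 CPM before scaling. This interval covers counting error only, and it is narrower than the range of Egr3 over the control mice. Ffar2, the targeted gene, was reduced in all 4 Adipoq-F2-KO libraries (log2 fold change -4.36, standard error 0.22, adjusted p = 8.0e-06 by edgeR's quasi-likelihood test). Levels are given as CPM, the count per gene relative to library size, after TMM scaling of the library sizes (normalized CPM). Differences are edgeR log2 fold changes of Adipoq-F2-KO over FFA2 fl/fl with their standard error (SE), from a two-sided test over 17039 genes with Benjamini-Hochberg adjustment, and a gene was called at an adjusted p under 0.05. For single genes, group means were also compared by an exact permutation test (two-sided, all 35 ways to assign the genotypes), whose smallest possible p is 0.0286. In bulk RNA, fewer cells of a type and less RNA per cell cannot be told apart.

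None of the 10 genes was called between genotypes by edgeR (0 of 10, against 1.02% of all tested genes). Mean levels of Nr4a3, Arc and Nr4a2 were 1.65 to 2.19 times those of the controls, Egr1 and Egr2 had nearly equal means in both genotypes, and Ier2 had a lower mean in Adipoq-F2-KO, none of these passing the test. At an unadjusted p under 0.05, 5 of the 10 genes (Nr4a1, Nr4a2, Nr4a3, Arc and Myc) were higher, against 10.5% of all tested genes, and 0 were lower, against 7.37%. Without Adipoq-F2-KO library 4 the same 5 genes were higher at that threshold (background 8.59%) and 1 of the 10, Nr4a3, was called (background 0.817%). With a library left out in turn, 3 to 6 of the 10 had an unadjusted p under 0.05 in either direction. Over all tested genes that number was 2042 to 3205, and 3047 with all 7 libraries. The 5 became 3 without control library 3 (2260 of all tested genes) and without Adipoq-F2-KO library 2 (2601). With no filter on low counts edgeR called 4 of the 10 as higher (Egr3, Nr4a2, Nr4a3 and Arc), against 3.76% of genes. DESeq2 called 1 of the 10, Nr4a2 (adjusted p = 0.0390), against 3.83% of genes called higher by that tool. Of the 10 genes, 9 had a log2 fold change above 0 and 1 below, with a median of 0.27, whereas 50.4% of all tested genes lay above 0 and their median was 0.00365.

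**Figure D1:**
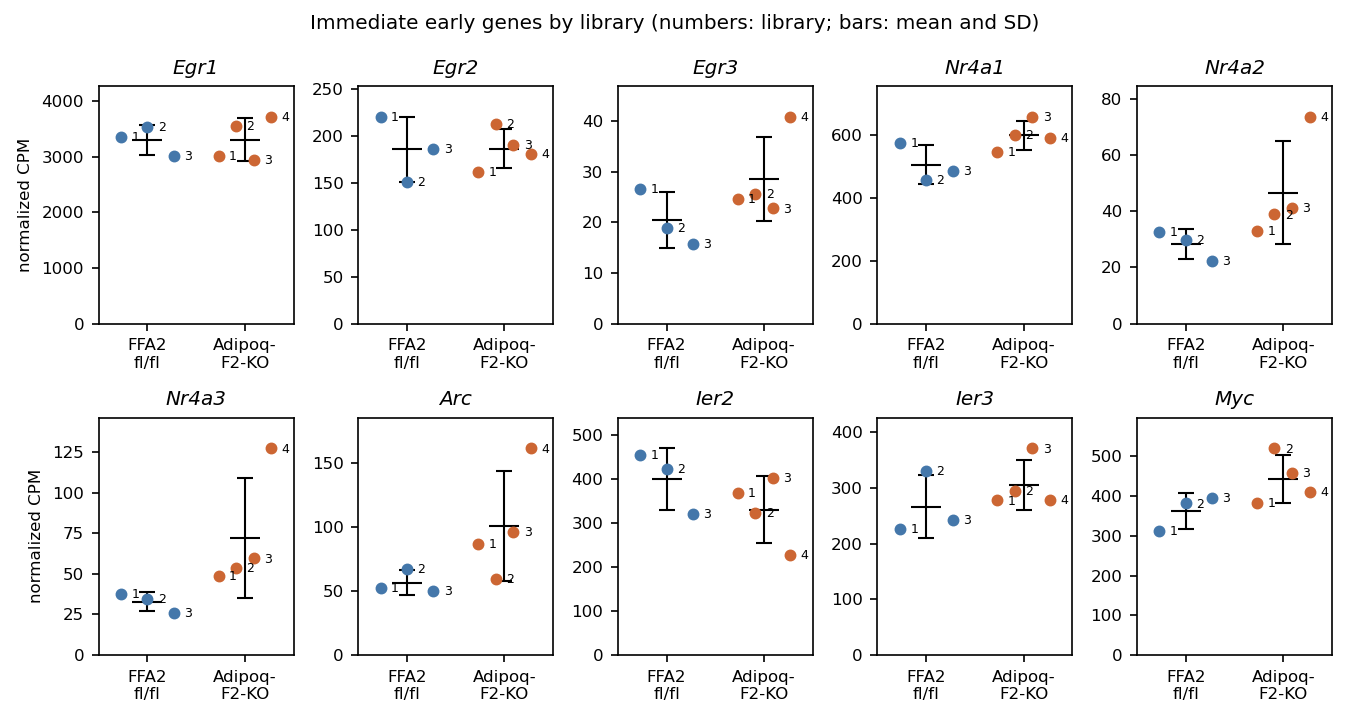
Normalized CPM (vertical axes, starting at 0) of the 10 genes in each library, with FFA2 fl/fl (n = 3) in blue and Adipoq-F2-KO (n = 4) in orange; numbers give the library, and bars the mean and SD. Nr4a2 and Nr4a3 are the genes whose groups do not overlap, and Adipoq-F2-KO library 4 is the highest of 7 for 5 genes and the lowest for Ier2.

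Nr4a3 (ENSMUSG00000028341) encodes NOR1 and lies on chromosome 4 from 48045153 to 48086447 on the plus strand in the deposited file's own coordinates, which are used for all gene positions. Its normalized CPM was 37.9, 34.8 and 26.1 in FFA2 fl/fl libraries 1 to 3, and 48.6, 53.7, 59.5 and 127 in Adipoq-F2-KO libraries 1 to 4. Every Adipoq-F2-KO library lay above every control, and library 4 lay far above the other 3. The means were 32.9 ± 6.10 (SD, n = 3) and 72.3 ± 37.0 (SD, n = 4), a ratio of 2.19. The log2 fold change was 1.13 (SE 0.30, 95% interval 0.48 to 1.79), larger than that of 95.5% of tested genes, and the gene did not pass the test (edgeR adjusted p = 0.0959, exact permutation p = 0.0857). Without Adipoq-F2-KO library 4, the Adipoq-F2-KO mean was 54.0 ± 5.44 (SD, n = 3) and the log2 fold change 0.71 (SE 0.14), with Nr4a3 called (edgeR adjusted p = 0.0443). Leaving out each of the other 6 libraries gave no call.

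Nr4a2 (ENSMUSG00000026826) encodes NURR1 and lies on chromosome 2 from 56996842 to 57014015 on the minus strand. The libraries held 32.7, 29.8 and 22.3 normalized CPM in FFA2 fl/fl and 32.9, 38.9, 41.3 and 73.7 in Adipoq-F2-KO. The groups did not overlap, although Adipoq-F2-KO library 1 stood barely above control library 1. The means of 28.3 ± 5.38 (SD, n = 3) and 46.7 ± 18.3 (SD, n = 4) corresponded to a log2 difference of 0.72 (SE 0.25, 95% interval 0.18 to 1.26, edgeR adjusted p = 0.167, exact permutation p = 0.0571). Without Adipoq-F2-KO library 4 it was 0.41 (edgeR adjusted p = 0.217) and the groups still did not overlap. Nr4a2 and Nr4a3 were 2 of 10 genes with no overlap, both higher, against 8.86% of all tested genes whose Adipoq-F2-KO libraries all lay above the controls (10.7% without library 4).

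Nr4a1 (ENSMUSG00000023034) encodes NUR77, which acts in lipolysis and gluconeogenic programs among others, and lies on chromosome 15 from 101152150 to 101172676 on the plus strand. It overlaps another identifier (ENSMUSG00000121015) on the same strand, which held 6 to 38 counts per library, and how reads in the overlap were counted is not given. In normalized CPM, Nr4a1 was at 573, 456 and 485 in FFA2 fl/fl and 545, 600, 656 and 590 in Adipoq-F2-KO. Adipoq-F2-KO library 1 lay below control library 1 and the other 3 lay above all controls. The log2 fold change of 0.24 (SE 0.11, 95% interval 0.011 to 0.48) had an edgeR adjusted p = 0.261 and an exact permutation p = 0.0857. It was 0.25 without Adipoq-F2-KO library 4, a library in which Nr4a1, unlike Nr4a2 and Nr4a3, did not stand apart.

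The balance within the NR4A family was compared inside each library, where the scaling between libraries cancels. Nr4a3 per Nr4a2, as a ratio of CPM, was 1.16, 1.17 and 1.17 in FFA2 fl/fl and 1.48, 1.38, 1.44 and 1.73 in Adipoq-F2-KO. The controls were nearly identical, at 1.16 ± 0.00673 (SD, n = 3), and all 4 Adipoq-F2-KO libraries lay above them, at 1.51 ± 0.153 (SD, n = 4). The log2 difference was 0.37, and 0.30 without Adipoq-F2-KO library 4. The exact two-sided permutation p was 0.0286, the smallest it can give, and 0.0857 after Benjamini-Hochberg adjustment over the 6 ratios computed within the EGR and NR4A families, which were chosen after the values had been seen. Nr4a3 per Nr4a1 was 0.0661, 0.0763 and 0.0539 against 0.0893, 0.0895, 0.0907 and 0.216. Adipoq-F2-KO libraries 1 to 3 were close to each other and library 4 stood apart, with the same exact permutation p of 0.0286 (0.0857 adjusted). Nr4a2 per Nr4a1 overlapped between genotypes, with a log2 difference of 0.42, or 0.17 without Adipoq-F2-KO library 4 (exact permutation p = 0.286, adjusted 0.343).

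**Figure D2:**
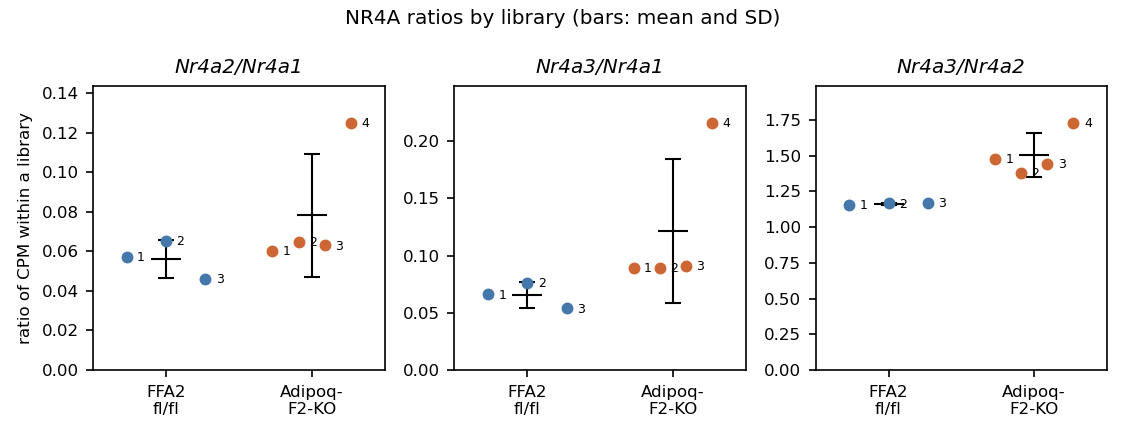
Ratio of CPM between NR4A genes within each library (vertical axes, starting at 0), with FFA2 fl/fl (n = 3) in blue and Adipoq-F2-KO (n = 4) in orange; numbers give the library, and bars the mean and SD. The 3 controls share a Nr4a3 to Nr4a2 ratio of 1.16 to 1.17 and the Adipoq-F2-KO libraries run from 1.38 to 1.73.

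Egr1 (ENSMUSG00000038418), the most abundant of the 10 genes, lies on chromosome 18 from 34992876 to 34998037 on the plus strand, and its protein represses adipocyte lipolytic genes such as Pnpla2. Levels of 3356, 3538 and 3015 normalized CPM were measured in FFA2 fl/fl and 3014, 3550, 2945 and 3717 in Adipoq-F2-KO. Of the Adipoq-F2-KO libraries, 2 lay above all controls and 2 below all controls, on either side of the control mean. The means were 3303 ± 265 (SD, n = 3) and 3307 ± 385 (SD, n = 4), and the 95% interval of the log2 fold change ran from -0.24 to 0.25 (edgeR adjusted p = 0.997).

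Egr2 (ENSMUSG00000037868), which encodes KROX20 and promotes early adipogenesis, lies on chromosome 10 from 67371305 to 67378018 on the plus strand. Its normalized CPM was 220, 151 and 186 in FFA2 fl/fl and 162, 212, 190 and 181 in Adipoq-F2-KO, so the Adipoq-F2-KO libraries fell inside the control range. The log2 difference was 0.0056 (SE 0.13, 95% interval -0.28 to 0.30, edgeR adjusted p = 0.990). Of Egr1 and Egr2, the sign of the difference turned with several single libraries left out, so neither has a direction.

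Egr3 (ENSMUSG00000033730), a factor known from lymphocytes, muscle spindles and neurons, lies on chromosome 14 from 70314652 to 70320063 on the plus strand. It had 26.5, 18.9 and 15.7 normalized CPM in FFA2 fl/fl and 24.7, 25.6, 22.7 and 40.8 in Adipoq-F2-KO. Control library 1 lay within the span of the Adipoq-F2-KO group, of which library 4 was well above the others. The log2 fold change was 0.48 (SE 0.22, 95% interval -0.0080 to 0.96, edgeR adjusted p = 0.288, exact permutation p = 0.257), and it was 0.26 without Adipoq-F2-KO library 4. Within libraries, Egr3 per Egr1 (log2 difference 0.48, exact permutation p = 0.143, adjusted 0.286), Egr3 per Egr2 (0.46, or 0.26 without Adipoq-F2-KO library 4, p = 0.286, adjusted 0.343) and Egr2 per Egr1 (0.018, p = 0.943) overlapped between genotypes.

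Arc (ENSMUSG00000022602), best known for its role at neuronal synapses, lies on chromosome 15 from 74540932 to 74544419 on the minus strand. In normalized CPM it stood at 52.3, 67.4 and 50.1 in FFA2 fl/fl and 86.6, 59.5, 96.4 and 161 in Adipoq-F2-KO. Library 2 of Adipoq-F2-KO fell among the controls and the other 3 lay above them. The means were 56.6 ± 9.46 (SD, n = 3) and 101 ± 43.2 (SD, n = 4), and the log2 fold change was 0.83 (SE 0.27, 95% interval 0.25 to 1.42, edgeR adjusted p = 0.143, exact permutation p = 0.114). Without Adipoq-F2-KO library 4 it was 0.51 (edgeR adjusted p = 0.187).

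Myc (ENSMUSG00000022346), a factor that drives growth and ribosome biogenesis, also lies on chromosome 15, from 61857240 to 61862223 on the plus strand. It had 311, 382 and 395 normalized CPM in FFA2 fl/fl and 383, 520, 459 and 411 in Adipoq-F2-KO. Library 1 of Adipoq-F2-KO fell between control libraries 2 and 3, and the rest exceeded all controls, with library 2 highest. Its log2 fold change was 0.29 (SE 0.12, 95% interval 0.016 to 0.56, edgeR adjusted p = 0.256, exact permutation p = 0.114), 0.32 without Adipoq-F2-KO library 4 and 0.19 without FFA2 fl/fl library 1.

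Ier3 (ENSMUSG00000003541), which encodes the survival protein IEX-1, lies on chromosome 17 from 36132576 to 36133815 on the plus strand. Its normalized CPM was 227, 331 and 242 in FFA2 fl/fl and 278, 295, 371 and 278 in Adipoq-F2-KO, with control library 2 above 3 of the Adipoq-F2-KO libraries. This gave a log2 fold change of 0.20 (SE 0.15, 95% interval -0.13 to 0.52, edgeR adjusted p = 0.523). It was 0.089 without FFA2 fl/fl library 1 or without Adipoq-F2-KO library 3, and 0.38 without FFA2 fl/fl library 2.

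Ier2 (ENSMUSG00000053560), a nuclear immediate early protein, lies on chromosome 8 from 85387960 to 85389483 on the minus strand. Normalized CPM of Ier2 was 455, 423 and 320 in FFA2 fl/fl and 369, 323, 403 and 228 in Adipoq-F2-KO. It was the only gene of the 10 with a lower mean in Adipoq-F2-KO, and library 4 held the lowest value, in contrast to Nr4a3, Arc, Nr4a2, Egr3 and Egr1. The difference was -0.27 on the log2 scale (SE 0.18, 95% interval -0.66 to 0.12, edgeR adjusted p = 0.458), -0.13 without that library and -0.17 without FFA2 fl/fl library 1.

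**Figure D3:**
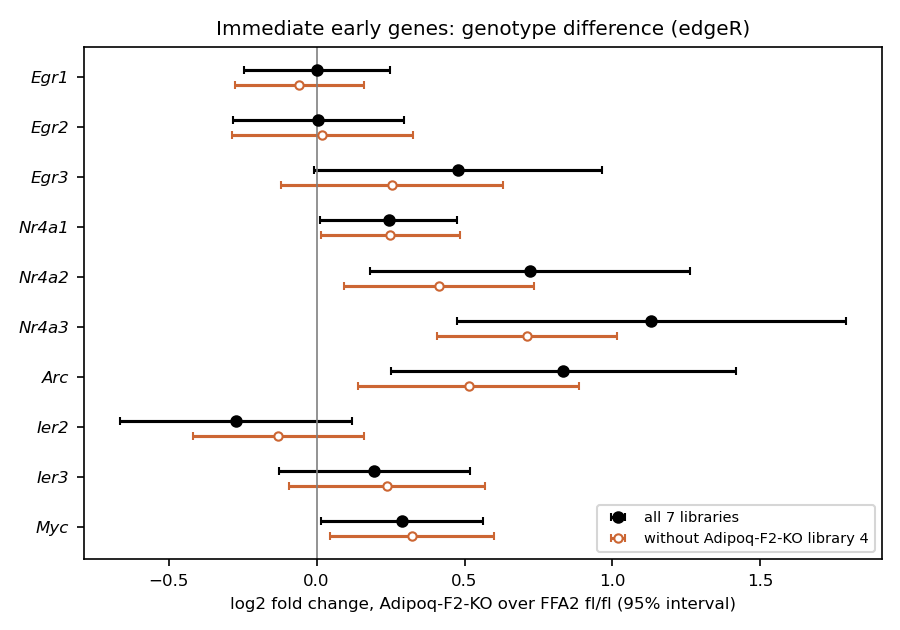
Log2 fold change of Adipoq-F2-KO over FFA2 fl/fl (horizontal axis) for each gene, with its 95% interval from edgeR, over all 7 libraries (black) and without Adipoq-F2-KO library 4 (orange, open). Nr4a3 moves from 1.13 to 0.71, and the intervals of Nr4a1, Nr4a2, Nr4a3, Arc and Myc lie above 0 in both fits.

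The libraries did not contribute alike. Adipoq-F2-KO library 4 was the highest of all 7 for Egr1, Egr3, Nr4a2, Nr4a3 and Arc, and FFA2 fl/fl library 3 the lowest for Egr3, Nr4a2, Nr4a3 and Arc. In log2 units above the control mean, Adipoq-F2-KO library 4 stood at 1.95 for Nr4a3, 1.51 for Arc, 1.38 for Nr4a2 and 1.00 for Egr3, yet at 0.17 for Egr1, -0.036 for Egr2 and -0.81 for Ier2. Adipoq-F2-KO library 3 was highest for Nr4a1 and Ier3 and library 2 for Myc. Between control libraries, Egr2 spread from -0.30 to 0.24 and Egr3 from -0.37 to 0.38 on the same scale. The spread between mice of a genotype, as edgeR's biological coefficient of variation, exceeded that of 78.8% of genes at 1 CPM or more for Nr4a3, 74.9% for Arc, 72.1% for Nr4a2 and 68.4% for Egr3, but of only 20.4% for Nr4a1 and 26.8% for Egr1.

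**Figure D4:**
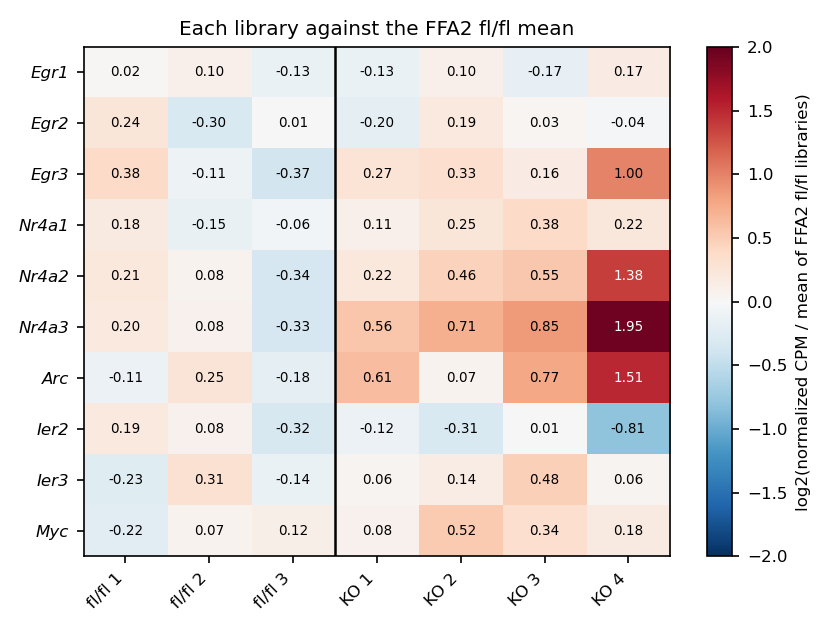
Log2 of each library's normalized CPM over the mean of the 3 FFA2 fl/fl libraries (color scale -2 to 2, value printed in each cell), with genes in rows and libraries in columns and a line between genotypes. Nr4a3 is above the control mean in all 4 Adipoq-F2-KO libraries, from 0.56 to 1.95.

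Levels between genes were compared per kilobase of exon. In FFA2 fl/fl, Egr1 stood highest at 737 CPM per kb, followed by Ier2 (262), Ier3 (236), Nr4a1 (144), Myc (133), Egr2 (54.6), Arc (18.5), Nr4a2 (6.97), Nr4a3 (5.50) and Egr3 (4.63). The control libraries overlapped between neighbors in this order for Ier2 and Ier3, Nr4a1 and Myc, Nr4a2 and Nr4a3, and Nr4a3 and Egr3, although Nr4a2 lay above Nr4a3, and Nr4a3 above Egr3, within each of the 3 control libraries. Ier2 exceeded Ier3 in 1 of 3 control libraries and Nr4a1 exceeded Myc in 1 of 3, so these 2 pairs have no clear order. In Adipoq-F2-KO, the mean level of Nr4a3 was 12.1 CPM per kb and that of Nr4a2 was 11.5. The libraries overlapped there, at 8.12 to 21.3 for Nr4a3 and 8.10 to 18.1 for Nr4a2, both highest in library 4, so no order is given. The 4 genes with the lowest levels, Arc, Nr4a2, Nr4a3 and Egr3, were also those with the 4 largest log2 fold changes over all 7 libraries. Myc exceeded Egr3 without Adipoq-F2-KO library 4 (0.32 and 0.26) and without FFA2 fl/fl library 3 (0.37 and 0.33).

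All 50 other immediate early genes of a list that includes the Fos, Jun, Klf, Zfp36 and Gadd45 families passed the filter. Of these, 34 had a log2 fold change above 0, with a median of 0.21, and 19 were higher and 2 lower at an unadjusted p under 0.05 (10.5% and 7.37% of all tested genes). Adipoq-F2-KO libraries lay entirely above the controls for 11 and entirely below for 1, against 8.86% and 8.72% of all tested genes. In this list 2 genes were called, both higher, against 0.798% of all tested genes called higher. Klf10, a repressor induced by TGF-beta, had 21.3, 34.5 and 29.4 normalized CPM in FFA2 fl/fl and 48.3, 54.6, 47.3 and 62.4 in Adipoq-F2-KO. All 4 Adipoq-F2-KO libraries exceeded the controls, and the log2 fold change was 0.90 (SE 0.16, edgeR adjusted p = 0.0382, exact permutation p = 0.0286). Homer1, a scaffold of postsynaptic signaling, had 9.40, 8.49 and 12.2 against 16.0, 20.7, 22.1 and 27.7 normalized CPM. It too had no overlap, with a log2 fold change of 1.11 (SE 0.19, edgeR adjusted p = 0.0379, exact permutation p = 0.0571). These calls depended on single libraries. With a library left out in turn, Klf10 was called in 3 of 7 fits and lost without FFA2 fl/fl libraries 1 and 3 and Adipoq-F2-KO libraries 2 and 3 (edgeR adjusted p up to 0.196), with log2 fold changes of 0.73 to 1.07. Homer1 was called in 2 of 7, without Adipoq-F2-KO libraries 1 and 4, and otherwise had an edgeR adjusted p up to 0.201, with log2 fold changes of 0.97 to 1.28.

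These 50 genes, without the 10, were divided by mean normalized CPM over all 7 libraries. The 15 below 100 CPM had a median log2 fold change of 0.51, with 12 above 0 and 6 lying entirely above the controls, against 8.76% of all tested genes in this class. The 13 from 100 to 300 CPM had a median of 0.26, with 10 above 0 and 4 lying entirely above the controls, against 10.4% of all tested genes in that class, and the 22 at 300 CPM or more a median of 0.064. All tested genes in the same 3 classes had medians of 0.018, -0.065 and -0.087. Without Adipoq-F2-KO library 4 the medians of the 50 genes were 0.31, 0.27 and 0.11, and the lower classes were then close. The classes were set with the pattern of the 10 genes known, and are a description.

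**Figure D5:**
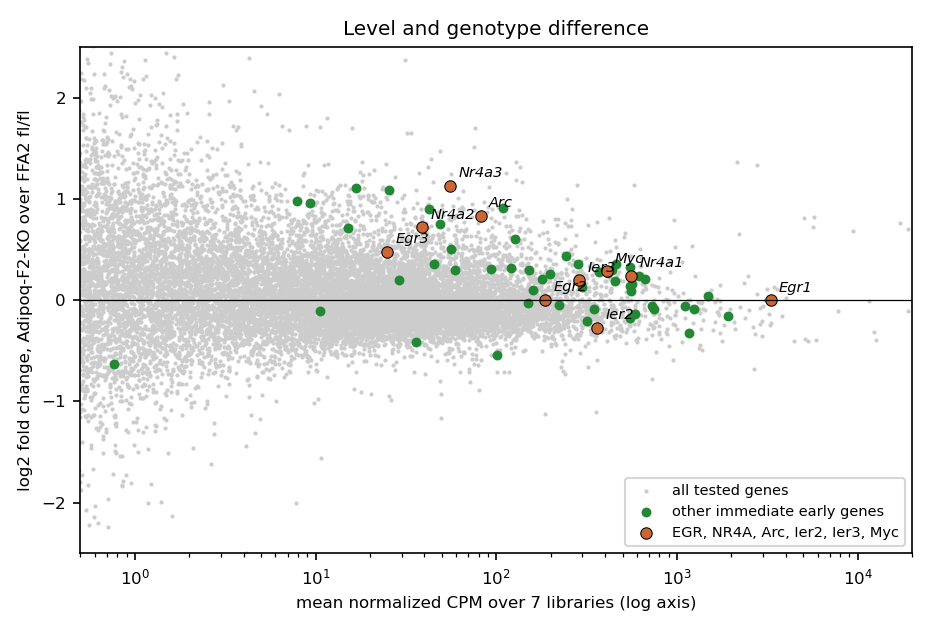
Mean normalized CPM over 7 libraries (horizontal log axis) against log2 fold change of Adipoq-F2-KO over FFA2 fl/fl, for the 10 genes (orange), 50 other immediate early genes (green) and all tested genes (gray). Another 1912 tested genes lie outside the axes, none of them (0) among the immediate early genes, and Nr4a3, Arc, Nr4a2 and Egr3 sit left of 100 CPM at 0.48 to 1.13.

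Partners and signaling genes were examined by lists that were chosen with earlier results of these data known. Of 22 partners and upstream factors of EGR, NR4A and MYC, 21 were tested, 0 were called, 6 were higher and 2 lower at an unadjusted p under 0.05 (10.5% and 7.37% of all tested genes), and the median log2 fold change was 0.13. At that threshold 3 were higher without Adipoq-F2-KO library 4 (8.59% of all tested genes). Nab2, a corepressor that binds EGR proteins and is itself induced by EGR1, had 5.87, 7.11 and 6.33 normalized CPM in FFA2 fl/fl and 13.4, 10.4, 9.13 and 14.7 in Adipoq-F2-KO. The groups did not overlap, and the log2 fold change of Nab2 was 0.89 (SE 0.19, edgeR adjusted p = 0.0526). Mrtfa, a coactivator of serum response factor, had a log2 fold change of 0.45 (edgeR adjusted p = 0.168).

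Of the 10 kinases of the ERK cascade, 0 were called and the median log2 fold change was -0.010. The kinases with the smallest p were Rps6ka3 (RSK2), at 0.28 (edgeR adjusted p = 0.225), and Map2k2 (MEK2), at -0.30 (edgeR adjusted p = 0.267). Of 12 genes induced by ERK that mostly feed back on it (Dusp, Spry, Spred and Etv genes with Phlda1), 11 were tested, with a median of 0.45, 7 higher and 0 lower at an unadjusted p under 0.05 (10.5% and 7.37% of all tested genes), and 4 lying entirely above the controls (8.86% of all tested genes). The 1 gene called (0.798% of all tested genes were called higher) was Phlda1, a pleckstrin homology domain protein, with 58.4, 100 and 72.7 normalized CPM in FFA2 fl/fl and 119, 127, 148 and 151 in Adipoq-F2-KO. All Adipoq-F2-KO libraries exceeded the controls, with a log2 fold change of 0.82 (SE 0.16, edgeR adjusted p = 0.0464, exact permutation p = 0.0286). It was called in 2 of 7 fits with a library left out, without FFA2 fl/fl library 2 or Adipoq-F2-KO library 1, and otherwise had an edgeR adjusted p up to 0.207. Without Adipoq-F2-KO library 4 its log2 fold change was 0.77 (edgeR adjusted p = 0.0596) and its list held 0 called genes.

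Of 8 cAMP and CREB target genes, 0 were called, 3 were higher and 1 lower at an unadjusted p under 0.05 (10.5% and 7.37% of all tested genes), and the median log2 fold change was 0.18, or 0.11 without Adipoq-F2-KO library 4. Pde4b, a phosphodiesterase that degrades cAMP, had 47.0, 55.9 and 40.5 normalized CPM in FFA2 fl/fl and 72.9, 72.2, 84.6 and 139 in Adipoq-F2-KO. Its groups did not overlap (log2 fold change 0.95, edgeR adjusted p = 0.0626), and it was called without Adipoq-F2-KO library 4 (0.68, edgeR adjusted p = 0.0346). Crem, whose ICER products repress cAMP-responsive genes, had 10.9, 14.4 and 13.8 against 17.1, 20.8, 22.9 and 34.5 normalized CPM, again with no overlap (log2 fold change 0.87, edgeR adjusted p = 0.0776, called without Adipoq-F2-KO library 1 at 0.0488). Like Nr4a2 and Nr4a3, both were highest in Adipoq-F2-KO library 4.

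Of 22 MYC target genes, 0 were called, 11 had a log2 fold change above 0 and the median was 0.0082. At an unadjusted p under 0.05, 6 were higher and 2 lower (10.5% and 7.37% of all tested genes), and 5 lay entirely above and 3 entirely below the controls (8.86% and 8.72%). Among them Srm, the spermidine synthase, had -0.56 (edgeR adjusted p = 0.0904) and Odc1, which makes the putrescine used in spermidine synthesis, had 0.42 (edgeR adjusted p = 0.0911). Of 12 heat shock genes that tissue digestion can induce, 0 were called, 1 was higher at an unadjusted p under 0.05 (10.5% of all tested genes) and the median was 0.094. Dnajb4 had a log2 fold change of 0.42 (edgeR adjusted p = 0.104, called without Adipoq-F2-KO library 1 at 0.0472). Hspa1a had 20.2 to 28.9 normalized CPM in FFA2 fl/fl and was lowest in Adipoq-F2-KO library 2 and highest in library 4 (52.0), with overlap between genotypes (log2 fold change 0.50, or 0.22 without that library, edgeR adjusted p = 0.353).

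Summed markers of other cell types are given beside these values. Adipocyte markers, 12 of 12 detected and far above those of any other type, match the labelled cell type. Their summed level, here before TMM scaling, was 51445 to 57445 CPM in FFA2 fl/fl and 38340 to 51132 in Adipoq-F2-KO. The groups did not overlap, and Adipoq-F2-KO library 4 was lowest. None of the 12 was called (0), 1 of 12 had a log2 fold change above 0, and the median was -0.26. At an unadjusted p under 0.05, 5 were lower and 0 higher (7.37% and 10.5% of all tested genes). Adipoq-F2-KO libraries lay entirely below the controls for 4 of the 12 (8.72% of all tested genes). Without Adipoq-F2-KO library 4 the median was -0.13. The 16 macrophage markers summed to 567 to 720 against 820 to 984, with 15 of 16 above 0 and 2 called higher (0.798% of all tested genes), or 1 called without Adipoq-F2-KO library 4 (0.817%). At an unadjusted p under 0.05, 13 of the 16 were higher (10.5% of all tested genes), or 12 without that library (8.59%). The 10 endothelial markers summed to 1095 to 1410 against 1494 to 2279, with 10 of 10 above 0 and 0 called, and the 7 mural markers to 657 to 758 against 764 to 1318, with 0 called. At the same unadjusted threshold 8 of the 10 endothelial and 2 of the 7 mural markers were higher, or 8 and 1 without Adipoq-F2-KO library 4. Each of these 3 sums was highest in Adipoq-F2-KO library 4, as was that of the 7 erythroid markers (99.2 to 222 against 207 to 360, overlapping, with 0 called). The most abundant marker was Cfd for adipocytes (means 13847 and 11100 normalized CPM, edgeR adjusted p = 0.236), Cd74 for macrophages (218 and 316, adjusted p = 0.129), Cdh5 for endothelial cells (352 and 531, adjusted p = 0.123), Rgs5 for mural cells (293 and 515, adjusted p = 0.111) and Hbb-bs for erythroid cells (79.5 and 115, adjusted p = 0.343).

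Fibroblast progenitor markers summed to 1924 to 2238 CPM in FFA2 fl/fl and 2159 to 2300 in Adipoq-F2-KO, and of the Adipoq-F2-KO libraries number 4 was the lowest. Of these 11 markers 9 had a log2 fold change above 0, with a median of 0.41. At an unadjusted p under 0.05, 5 were higher and 0 lower (10.5% and 7.37% of all tested genes), and 0 were called. Without Adipoq-F2-KO library 4, 7 were above 0, the median was 0.22 and 2 were higher at that threshold (8.59% of all tested genes). In that fit 1 was called higher (0.817% of all tested genes). Neutrophil (3.30 to 5.22 against 3.15 to 4.11, with Ly6g at 0 in all libraries), T cell (2.06 to 7.93 against 2.02 to 4.93), B cell (1.01 to 27.1 against 3.00 to 14.3) and mesothelial markers (10.1 to 26.4 against 7.45 to 10.6) overlapped between genotypes. Germ cell markers summed to 0 to 5.25 against 3.32 to 158, highest in Adipoq-F2-KO library 2. Of 5 germ cell markers tested, 5 had a log2 fold change above 0, 3 were higher at an unadjusted p under 0.05 and 0 were called. Without Adipoq-F2-KO library 4, 4 were higher at that threshold (8.59% of all tested genes) and 1 was called higher (0.817%). The most abundant markers of these 6 lists, Col15a1, S100a8, Lck, Cd79a, Krt19 and Prm2, were not called (edgeR adjusted p from 0.0959 to 0.954). Mitochondrial genes took 4.41% to 5.77% of counts in FFA2 fl/fl and 6.61% to 10.3% in Adipoq-F2-KO, again highest in library 4. The part of these cell type, mitochondrial and heat shock transcripts in the values of Nr4a2, Nr4a3, Arc and Egr3 was not tested.

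For the gene with the smallest p in each class, genes with the most similar profile over the 7 libraries were found. The 13363 candidates were tested genes outside the 10, with a symbol and a mean of at least 1 CPM. Similarity was the root mean square difference in centered log2 normalized CPM, after adding 0.5 CPM. Nr4a3 was closest to Has1 (0.148), a hyaluronan synthase, to Pde4b (0.179) and to 9930111J21Rik2 (0.180), where the profile of Nr4a3 itself had an amplitude of 0.670. Arc was closest to Hey1 (0.125), Fam111a (0.125) and Tnfrsf10b (0.130), with an amplitude of 0.550. Egr3 was closest to Gm17491 (0.0656), Limch1 (0.0886) and Galnt4 (0.0959), with an amplitude of 0.390. Gm17491 had means of 0.858 in FFA2 fl/fl and 1.37 normalized CPM in Adipoq-F2-KO, near the limit, where the added 0.5 CPM narrows a profile. None of these 9 genes was called between genotypes (edgeR adjusted p from 0.0626 to 0.478).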

How the data were processed

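RNA-Seq of 7 libraries was analyzed. The authors prepared poly-A selected, stranded libraries, sequenced them as paired 150 bp reads, trimmed them with Trimmomatic, aligned them with STAR and assigned reads to genes with featureCounts. Tool versions and counting options are not given in the sources used here. The deposited values are raw gene counts, beside columns for gene coordinates and exon length. The submitters' processing notes name GRCm38 and mm10, but the gene coordinates differ from GRCm38, so gene positions are the file's own, and RefSeq promoter windows are given on GRCm38.p6. Strand and overlap settings are not given, so counts of overlapping genes are uncertain.

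Genes were filtered with filterByExpr, scaled with TMM and tested with edgeR 4.0.16 (glmQLFit, glmQLFTest, genotype as only term) in R 4.3.3. SE is the fold change over the square root of F. The study's own tool, DESeq2 (1.42.0 here), and limma voom (3.58.1), RLE scaling, no filter, omission of mitochondrial genes and the most abundant identifier, a replicate block and leaving out each library were alternatives. Counts were also simulated for 7 libraries, with the spread of each gene set by its level alone and no outlying library. With 200 of 17039 genes changed by a log2 fold change of 1, edgeR recovered 59.8% with 5.47% false calls, and DESeq2 61.5% with 15.5%. These rates do not cover a gene with a wider spread, such as Nr4a3. The p-values weigh the genotype difference against the spread between the mice sampled. No pair of libraries within a genotype matched to within sampling error (chi-square over degrees of freedom, in fragments, from 20.7 to 82.5). A count of 0 allows 0.150 to 0.197 CPM (3 fragments). Named genes were the 10 genes, Ffar2, each list's called genes or else the 2 with the smallest p, the 3 closest profiles in each class, and each marker list's most abundant gene. The genes and lists were chosen with earlier results of these data known, and the ratios, the abundance classes and the lists without Adipoq-F2-KO library 4 after the values were seen. All per-sample columns were used.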

Additional observations from a re-analysis of the deposited data

Results flagged for a closer look

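In 2 of the 10 genes, 1 Adipoq-F2-KO library stood far from the other 3. For Nr4a3 the gap between library 4 (127 normalized CPM) and the next highest (59.5) was 0.862 of the whole range of the 4 libraries. For Egr3 the gap between the same library (40.8) and the next (25.6) was 0.839 of the range. Both exceed Dixon's critical value for 4 samples. The levels of 11 genes, the 10 and Ffar2, were examined in this way, and chance flags about 1 group in 20. The part of cell composition, mitochondrial share or handling of that library was not tested.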

How the results depend on the processing

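The number of tested genes called was 173, and 1403 without a filter on low counts, 888 with DESeq2 and 1 to 178 with a library left out. Among controls, omitting libraries 1, 2 and 3 gave 1, 41 and 5, and among Adipoq-F2-KO, omitting libraries 2 and 3 gave 11 and 20. Of the 10 genes, 0 were called, 4 without the filter (Egr3, Nr4a2, Nr4a3 and Arc, all higher, against 3.76% of the 28515 genes then tested), 1 with DESeq2 (Nr4a2), and 0 to 1 with a library left out, the 1 being Nr4a3 without Adipoq-F2-KO library 4. The number whose groups did not overlap, 2, ranged from 2 to 4, and was 4 when any single control or Adipoq-F2-KO library 1 was omitted. Over all tested genes that share was 17.6%, and 21.2% to 28.2% with a library left out, so the rise has to be read against it. Egr1 had log2 fold changes of -0.0022 without the filter, -0.0013 with limma voom, and -0.059 to 0.054 with a library left out, and Egr2 -0.12 to 0.14. The other 8 genes kept their direction in all 13 alternatives, with Nr4a3 from 0.71 to 1.28 (adjusted p from 1.7e-09 to 0.301), Nr4a2 from 0.41 to 0.86, Arc from 0.50 to 1.02, Egr3 from 0.26 to 0.71 and Ier2 from -0.39 to -0.12. Samples with the same number did not deviate together (correlations 0.103, -0.0154 and -0.0400), so the numbers were taken as names. With a replicate block, which leaves Adipoq-F2-KO library 4 without a partner, 224 genes and 0 of the 10 were called, Egr1 was at -0.061 and Nr4a3 at 0.72 (adjusted p = 0.0576), and Pde4b (0.0460) and Crem (0.0447) were called. Ffar2 was called in all 13 alternatives (-4.64 to -4.22). DESeq2 also called Nab2, Crem, Pde4b, Odc1 and Dnajb4 as higher (adjusted p = 0.00325, 0.0048, 0.000349, 0.0112 and 0.0191) and Srm as lower (0.0200). Without the filter these 6 were called too, with Mrtfa (0.0465) and Hspa1a (0.0267). The causes of these shifts were not tested. Each of the 10 genes had at least 537 counts in every library.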
